A study of Mus musculus with 6 samples.

Results

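The epidermal growth factor (EGF) family ligands and their ERBB receptors were examined in cultured cells of the mouse lacrimal gland. The labels name these cells as myoepithelial, and their markers are given below. A list of 9 genes was set by symbol: the receptors Egfr, Erbb2 and Erbb3 and the ligands Areg, Ereg, Hbegf, Tgfa, Btc and Nrg1. Of the 9, 8 had a probe set annotated with their symbol alone, out of 22180 genes compared, and a gene with more than 1 such probe set was represented by its brightest, judged by the mean of the 6 arrays. Areg, which encodes amphiregulin, had 0 such probe sets in the annotation used and was not analysed here.

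Total RNA of the cells was read on 6 Affymetrix Mouse Gene 2.0 ST arrays, 3 per group. One group came from female TSP1 null mice, whose TSP1 allele is not further described in the labels, and the other from female C57BL/6J wild-type mice. TSP1 is thrombospondin-1, a secreted matrix protein encoded by Thbs1, and the study set cells of this mouse, its dry eye model, against cells of healthy mice. In both groups the exorbital glands were digested with collagenase and the cells, fed with medium that contained serum, were kept untreated for 2 to 3 weeks. The labels call the arrays biological replicates but give no ages, no number of animals per culture and no statement that each array had a culture of its own, so the p-values rest on a spread between arrays that may be technical.

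ERBB receptors are receptor tyrosine kinases that signal as pairs. EGFR binds EGF, amphiregulin, epiregulin, HB-EGF, TGF-alpha and betacellulin, ERBB2 has no known ligand and acts as a partner of the other receptors, and ERBB3 binds neuregulins but has little kinase activity of its own. Most ligands are made as membrane-anchored precursors that metalloproteinases cut free, and receptor activation feeds the RAS and ERK cascade and the PI3-kinase and AKT pathway. In exocrine glands these ligands are known for their part in branching, growth and repair of the epithelium.

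No member passed the test between the groups. With limma, 0 of the 8 members and 0 of all 22180 genes (0%) had an adjusted p below 0.05, and the smallest adjusted p of any gene was 0.161. Egfr and Erbb2 had higher signals on every TSP1 null array than on any wild-type array, Tgfa had lower ones, and the arrays of the groups overlapped for Erbb3, Ereg, Hbegf, Btc and Nrg1. Groups that did not overlap were thus found for 3 of 8 members, 2 of them higher and 1 lower in the null group, beside 15.8% of all genes (10.1% higher and 5.75% lower). The same 3 members had an unadjusted p below 0.05, beside 10.6% of all genes. With so few members these counts describe the list only. The median difference of the 8, TSP1 null minus wild type, was -0.02 on the log2 scale, with 4 positive and 4 negative, and that of all genes was 0.02.

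**Figure D1:**
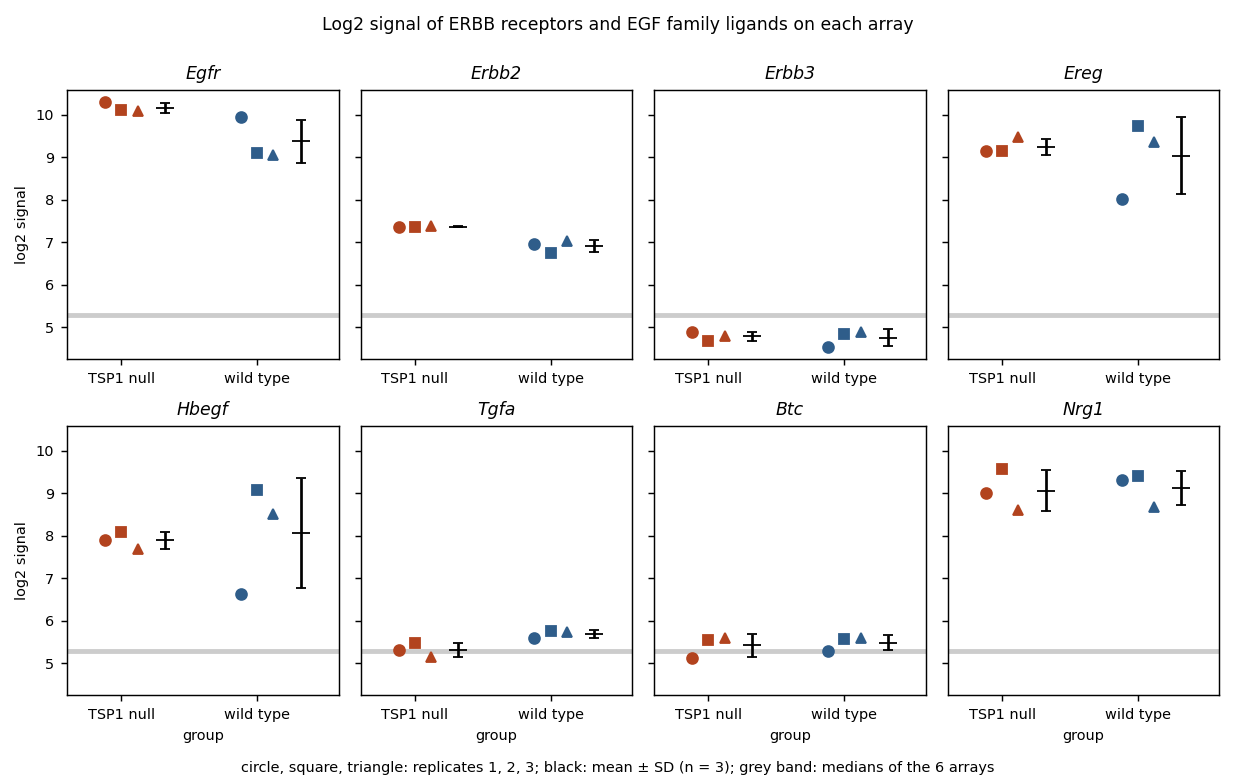
Log2 signal (vertical axis) of the 8 measured members on each of the 3 TSP1 null and 3 wild-type arrays, with the mean ± SD of each group in black and the medians of the 6 arrays as a grey band. Egfr, Erbb2 and Tgfa are the members whose groups do not overlap, Erbb3 lies below the band on all 6 arrays, and the first wild-type array is the lowest of the 6 for Ereg and Hbegf.

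The arrays were also compared as wholes. Medians of the 41345 log2 signals ran from 5.25 to 5.32 and correlations between arrays from 0.978 to 0.988. Thbs1, the targeted gene, read 12.73, 13.03 and 13.00 on the null arrays and 13.51, 13.75 and 13.54 on the wild-type arrays, so it was bright in both groups. The labels do not place its probes against the disrupted part of the gene, which makes it a weak check of them. Of the markers of the labelled cell type, Acta2 (smooth muscle actin) read 13.85 to 14.01 and Cnn1 (calponin) 11.64 to 12.22 over the 6 arrays. Oxtr, the oxytocin receptor, read 5.48 to 6.02, near the array medians, and Trp63, a basal epithelial regulator, read 4.47 to 4.93, below them. Krt14, a basal keratin, read 6.35, 6.21 and 5.78 on the null arrays and 4.93, 5.23 and 5.52 on the wild-type arrays, a difference of 0.89 (SE 0.20; limma, unadjusted p = 0.00241 and adjusted p = 0.29). Groups did not overlap, with higher signals in the null group, for 3 of 5 basal genes (Krt14, Krt17 at 0.82 and Trp63 at 0.27). The same held for 3 of 11 luminal genes (Cldn4 at 0.67, Krt8 at 0.35 and Krt18 at 0.65). Both counts stand beside 10.1% of all genes, and the direction was that of Egfr and Erbb2. The arrays did not follow Egfr within the wild-type group, where the basal list mean was 5.53, 5.89 and 6.07 and the luminal list mean 5.17, 5.55 and 5.44. Both means were lowest on the first wild-type array, where Egfr was the highest of its group. Lower on average in the null group were 1 basal gene, Itga6 (-0.49), and 1 luminal gene, Epcam (-0.15). Krt5, another basal keratin, shares its probe set with Krt6a and was not used here. The mean signal of 20 macrophage genes was 9.36, 10.17 and 7.60 on the null arrays and 10.00, 10.67 and 10.85 on the wild-type arrays, with all 20 lower on average in the null group, and Cd68 and Tyrobp on the third null array still at 9.66 and 6.86. That of 12 fibroblast genes was 9.72, 10.29 and 9.76 against 10.62, 9.33 and 9.60, highest on the first wild-type array. This list held genes bright in both groups, such as Col1a1 (12.56 to 13.53) and Pdgfra (11.27 to 12.11), and dimmer ones, such as Pi16 (4.96 to 6.39). Its members went both ways, 7 higher and 5 lower on average in the null group. Col1a1 (0.54), Col1a2 (0.51) and Col3a1 (1.03) were higher on every null array than on any wild-type array, again the direction of Egfr and Erbb2. These were 3 of the 12, beside 10.1% of all genes. Lum, Dpt and Fbln1 were highest on the first wild-type array, at 9.76, 9.94 and 8.77, with group differences of -1.05, -0.40 and 0.60. Fewer cells of a type and less RNA per cell cannot be told apart in such bulk samples. The part of these other cells in the results that follow was not tested except where a value is given. The macrophage mean itself differed by -1.47 between the groups, so a fit with it as a covariate cannot fully part it from genotype.

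Egfr encodes the EGF receptor itself, the founding member of the ERBB family. Its log2 signals were 10.29, 10.11 and 10.09 on the TSP1 null arrays and 9.96, 9.11 and 9.07 on the wild-type arrays. The null arrays lay close together and above all wild-type arrays, while the first wild-type array stood 0.12 below the lowest null array and well above the other 2 of its group. Group means were 10.16 ± 0.11 and 9.38 ± 0.50 (SD, n = 3), a difference of 0.78 (SE 0.24, 95% interval 0.23 to 1.33) or 1.72-fold, which did not pass (limma, adjusted p = 0.354). The first wild-type array had the highest mean of the fibroblast list and the lowest means of the basal and luminal lists. The part of these cells was not tested. Without this array the difference was 1.07 (adjusted p = 0.0742 with limma), the largest when any 1 array was left out. The smallest, without the third wild-type array, was 0.63 (adjusted p = 0.6 with limma). With the macrophage mean of each array as a covariate the difference was 0.65 (SE 0.33), and an ordinary linear model gave an unadjusted p of 0.0581 where limma gave 0.0113.

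Erbb2, the partner receptor without a ligand of its own, had the tightest null group of the 8 members. It read 7.37, 7.37 and 7.38 on the null arrays against 6.97, 6.75 and 7.03 on the wild-type arrays. No wild-type array reached the null arrays, and the gap between the groups was 0.34. The difference was 0.46 (SE 0.11, 95% interval 0.19 to 0.72) or 1.37-fold, with the smallest p of the members (limma, unadjusted p = 0.00431 and adjusted p = 0.313). It stayed between 0.37 and 0.51 when any 1 array was left out. With the macrophage covariate it was 0.45 with a larger SE of 0.17 (limma, unadjusted p = 0.032 and adjusted p = 0.821). The SD of the null arrays was 0.0063 and that of the wild-type arrays 0.14.

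Because Egfr and Erbb2 were the receptors whose groups did not overlap in the same direction, the 250 bases before their start sites are shown, from the RefSeq promoter table of build GRCm38.p6. Windows were in that table for 4 of the 8 measured members. Both receptors lie on the + strand, Egfr with chr11:16751953-16752202 and Erbb2 with chr11:98412234-98412483. Capitals mark matches, on either strand, to any of 5 short motifs: the GC box GGGCGG, the TATA box TATAAA, the CCAAT box CCAAT, the AP-1 site TGANTCA and the hypoxia response core ACGTG.
Egfr: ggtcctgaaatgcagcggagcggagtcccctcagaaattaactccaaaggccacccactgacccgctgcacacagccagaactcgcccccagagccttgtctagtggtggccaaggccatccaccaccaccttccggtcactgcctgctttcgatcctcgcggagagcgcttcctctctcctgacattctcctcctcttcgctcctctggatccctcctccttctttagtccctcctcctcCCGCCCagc
Erbb2: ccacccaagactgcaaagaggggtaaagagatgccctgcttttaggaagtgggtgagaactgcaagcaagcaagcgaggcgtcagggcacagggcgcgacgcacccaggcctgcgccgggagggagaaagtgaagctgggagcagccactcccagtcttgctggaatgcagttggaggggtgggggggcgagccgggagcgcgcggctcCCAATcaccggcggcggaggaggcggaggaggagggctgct
The Egfr window held 1 GC box, which begins 9 bases before the start site, and the Erbb2 window 1 CCAAT box, which begins 41 bases before it. Neither window matched the other motifs. Among 32841 RefSeq windows of the same length a GC box was in 32.7%, a CCAAT box in 33.9%, a TATA box in 12.4%, an AP-1 site in 6.75% and the hypoxia core in 16.6%, so both matches are common ones. The windows had a G and C content of 60.8% and 66%, against a median of 52.4% over all windows. The other members with a window, Tgfa at 69.2% and Btc at 59.6%, were also above that median.

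Erbb3 encodes the neuregulin receptor with a weak kinase. Its signals were 4.90, 4.68 and 4.80 on the null arrays and 4.54, 4.84 and 4.90 on the wild-type arrays. All 6 lay below the array medians, where signals are compressed towards background, and the groups overlapped. The difference was 0.03 (SE 0.14, 95% interval -0.28 to 0.35; adjusted p = 0.958 with limma). Erbb4, the remaining receptor of the family and no member of the list, was also dim, at 3.85 to 4.23 in the null group and 4.07 to 4.49 in the wild-type group.

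**Figure D2:**
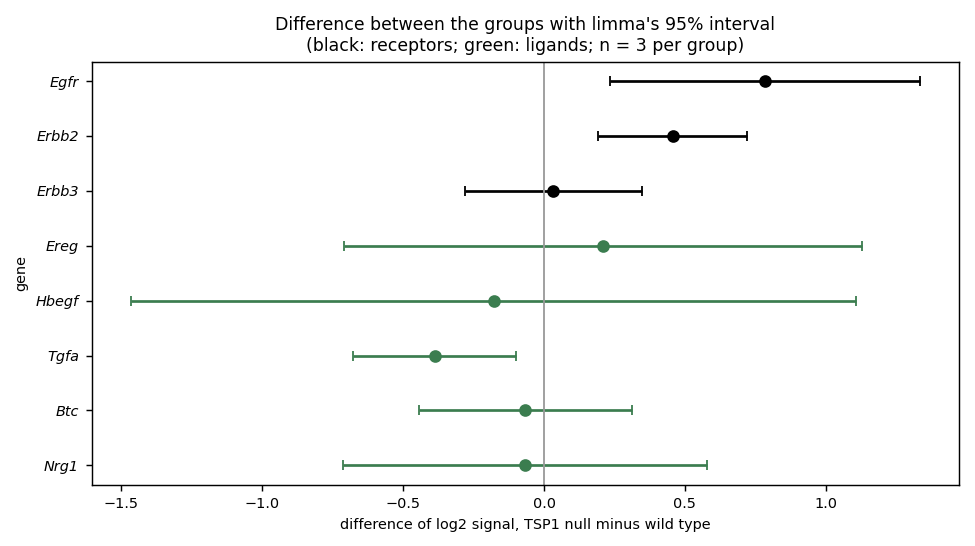
Difference of log2 signal between the groups (horizontal axis, TSP1 null minus wild type, n = 3 per group) for the 8 members, with limma's 95% interval; receptors are black and ligands green. The intervals of Egfr (0.23 to 1.33), Erbb2 (0.19 to 0.72) and Tgfa (-0.68 to -0.10) leave out 0 before adjustment for the number of genes, and that of Hbegf is the widest.

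Tgfa encodes TGF-alpha, an EGFR ligand of epithelial cells and macrophages. On the null arrays it read 5.31, 5.47 and 5.14, and on the wild-type arrays 5.58, 5.76 and 5.74. Every null array was below every wild-type array, although all 6 signals were near the array medians. The difference was -0.39 (SE 0.12, 95% interval -0.68 to -0.10), or 1.31-fold lower in the null group, and did not pass (limma, adjusted p = 0.379). The third null array was lowest for Tgfa and for the macrophage genes, and the second null array was the highest of its group for both. With the macrophage mean as a covariate, which itself differed between the groups, the difference was -0.20 (SE 0.15). Without the third null array it was -0.31.

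Hbegf encodes heparin-binding EGF-like growth factor, which activates EGFR and ERBB4. Its signals were 7.89, 8.08 and 7.69 on the null arrays and 6.62, 9.08 and 8.51 on the wild-type arrays. The wild-type arrays lay on both sides of the null arrays, and their range of 2.46 compares with 0.40 within the null group. The difference was -0.18 (SE 0.55, 95% interval -1.47 to 1.11; adjusted p = 0.941 with limma). Its size and sign depended on which wild-type arrays were kept. Without the first wild-type array the difference was -0.90 (SE 0.20), with a limma unadjusted p of 0.00301 and adjusted p = 0.175. It was 0.33 without the second and 0.04 without the third wild-type array, and 0.41 (SE 0.71) with the macrophage covariate, so no direction held over these settings.

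Ereg encodes epiregulin, a ligand of EGFR and ERBB4. It read 9.14, 9.14 and 9.47 on the null arrays against 8.03, 9.74 and 9.35 on the wild-type arrays. As for Hbegf, the first wild-type array was the lowest and the second the highest of the 6, and the null arrays lay between them. The difference was 0.21 (SE 0.39, 95% interval -0.71 to 1.13; adjusted p = 0.892 with limma), and it turned to -0.30 without the first wild-type array. A further Ereg probe set, not used for the gene, was dimmer at 6.07 to 6.41 and had a difference of 0.10.

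Btc encodes betacellulin, another ligand of EGFR and ERBB4, and Nrg1 encodes neuregulin-1, which binds ERBB3 and ERBB4. Btc signals were 5.11, 5.55 and 5.59 on the null arrays and 5.29, 5.57 and 5.60 on the wild-type arrays, all near the array medians. The lowest array of each group was its first, the groups overlapped, and the difference was -0.07 (SE 0.16, 95% interval -0.44 to 0.31). Nrg1 read 9.005, 9.56 and 8.61 on the null arrays and 9.31, 9.39 and 8.67 on the wild-type arrays. It was well above the medians in both groups, with ranges of 0.95 and 0.72 within them. Its difference of -0.07 (SE 0.28, 95% interval -0.71 to 0.58) was far smaller than either range. Among the null arrays Nrg1 followed the order of the macrophage mean, highest on the second and lowest on the third, and with that mean as a covariate its difference was 0.31 (SE 0.33). In the wild-type group it did not, since its lowest signal was on the third array, where the macrophage mean was highest. With limma the adjusted p values of Btc and Nrg1 were 0.919 and 0.957.

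**Figure D3:**
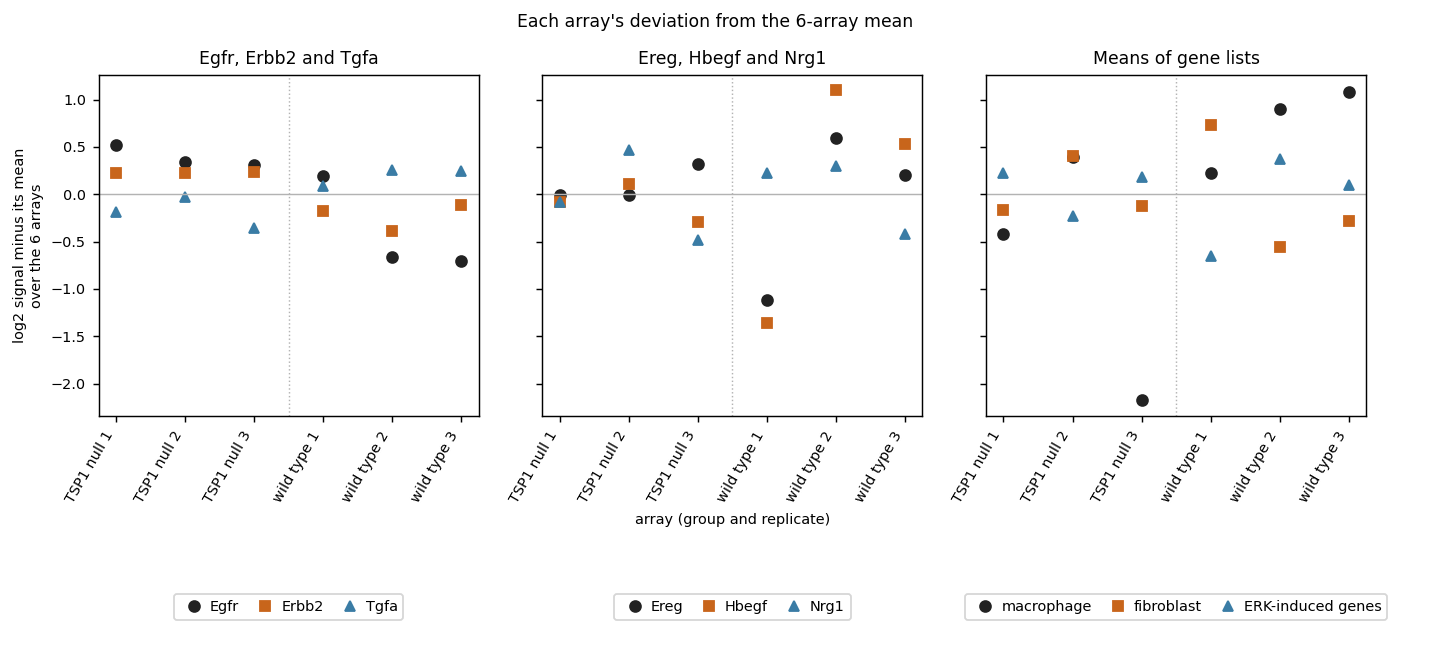
Log2 signal minus its mean over the 6 arrays (vertical axis) on each array, for Egfr, Erbb2 and Tgfa, for Ereg, Hbegf and Nrg1, and for the means of the macrophage, fibroblast and ERK-induced gene lists; a dotted line parts the groups. On the first wild-type array Ereg lies at -1.11 and Hbegf at -1.36, and Egfr at 0.19 there lies far from the other 2 wild-type arrays.

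The members whose 6 signals spanned at least 1 log2 unit were Egfr, Ereg and Hbegf, with spans of 1.23, 1.71 and 2.46. For each, the 3 genes with the most similar profile were sought among all tested genes, by the root-mean-square difference after each gene was centred on its own mean over the 6 arrays. Col6a1 (a collagen VI chain, 0.13), Denn2b (0.15) and Marcks (0.15) were nearest to Egfr, against 0.49 for a flat profile. Nearest to Ereg was Ptgs2, the inducible prostaglandin synthase, at 0.055, where a flat profile gives 0.54. Its signals were 11.45, 11.37 and 11.72 on the null arrays and 10.20, 11.98 and 11.69 on the wild-type arrays, with the same low first wild-type array. Syt17 (0.12) and Htr1b (0.13) came next. Kcnmb1, Ankrd1 and Rab3ip were nearest to Hbegf at 0.17, 0.18 and 0.20, against 0.76 for a flat profile. With 6 arrays and 22180 genes such near profiles describe these arrays only.

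Other genes of the pathway were taken from 5 lists by role, and 0 of the 64 measured passed in either direction. The remaining ligands and receptors (Egf, Epgn, Nrg2, Nrg3, Nrg4 and Erbb4) had 6 of 6 measured, mean signals per array of 4.55 to 4.74, below the array medians, and a median difference of -0.02. Of them the smallest p belonged to Nrg2, a neuregulin, with -0.18 (SE 0.11), Erbb4 with -0.20 (SE 0.16) and Epgn (epigen) with 0.11 (SE 0.18). Among 10 shedding genes 2 had an unadjusted p below 0.05 and both were higher in the null group, beside 10.6% of all genes at that level and 6.28% in that direction. They were Rhbdf1, an inactive rhomboid that escorts the sheddase ADAM17, with 0.39 (SE 0.11), and Bace1, a protease that cuts neuregulin-1, with 0.50 (SE 0.18). The next was Adam19, at 0.35 (SE 0.19). Adam17 and Adam10, the main sheddases of these ligands, had differences of -0.12 (SE 0.12) and -0.11 (SE 0.12). The list's median of 0.20 turned to -0.03 without the first wild-type array.

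Of the 24 adaptors and kinases listed 19 were measured, and 7 of these had an unadjusted p below 0.05 with higher means in the null group (6.28% of all genes) and 1 with a lower mean (4.27% of all genes). Groups did not overlap for 8 of the 19, 7 higher and 1 lower, beside 15.8% of all genes. The mean signals of this list per array were 9.22 to 9.48, far above the array medians. The shares of all genes, many of them dim, are thus not matched to it in brightness, and the counts describe this list only. The median difference of the 19 was 0.23, against 0.02 for all genes, and ran from 0.15 to 0.28 over the alternatives. The smallest p belonged to Pik3r2, a regulatory subunit of PI3-kinase. It read 7.73, 7.48 and 7.59 in the null group and 6.98, 7.20 and 7.04 in the wild-type group, a difference of 0.53 (SE 0.12; limma, adjusted p = 0.29). Shc1, an adaptor that docks on activated EGFR, followed with 0.48 (SE 0.13), and Plcg1, a phospholipase recruited by the receptor, with 0.45 (SE 0.13). Grb2, which links the receptors to RAS activation, had 0.11 (SE 0.13).

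Among 16 inhibitors 1 gene was higher and 1 lower at an unadjusted p below 0.05, beside 6.28% and 4.27% of all genes. The median difference was 0.11, or 0.058 with the macrophage covariate. Rasa1, a RAS GTPase-activating protein, had -0.40 (SE 0.14), Spry1 had 0.44 (SE 0.18) and Spry2 had 0.48 (SE 0.23), the last 2 being Sprouty feedback inhibitors. Of 13 genes known to be induced by ERK signalling, 1 was higher and 1 lower at that level, beside the same shares of all genes, and 0 had groups that did not overlap, beside 15.8% of all genes. The 2 at that level were Ier3, an immediate early gene, with 0.74 (SE 0.29), and Etv5, an ETS factor, with -0.56 (SE 0.21). Dusp6, the phosphatase that limits ERK, had -0.72 (SE 0.39). The median of this list was 0.08. It turned to -0.18 without the first wild-type array and was 0.33 without the second null array, 0.29 without the second and 0.18 without the third wild-type array, and 0.021 without the first null array. Its mean signal was 8.34, 7.89 and 8.30 in the null group and 7.47, 8.49 and 8.22 in the wild-type group. The first wild-type array was lowest here as it was for Ereg and Hbegf.

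**Figure D4:**
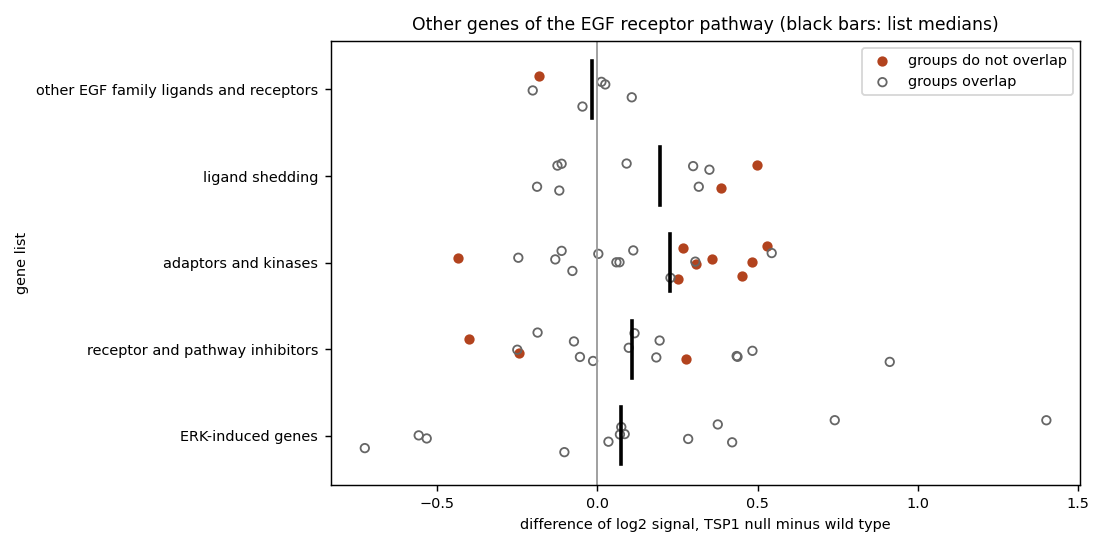
Difference of log2 signal (horizontal axis, TSP1 null minus wild type) of each measured gene in 5 lists of the EGF receptor pathway (vertical axis; points are spread within a row for sight only), with list medians as black bars. Filled points are genes whose groups do not overlap; the adaptors and kinases hold 8 of them among 19 genes, and the ERK-induced genes 0 among 13.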

How the data were processed

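For each of the 6 arrays the deposited file holds 41345 probe set signals, which the authors had normalized and put on a log2 scale, as read from the values. Partek and RMA are named in the submitters' processing notes, and their versions, settings and any build are not stated there. RMA compresses differences of dim probe sets, and the small number of arrays limits the precision. Probe sets were named from the platform annotation (23521 with 1 symbol, 1814 with several, 16010 with none); for a gene with several single-symbol probe sets the brightest was tested, with no intensity filter. Groups were taken from sample titles, which write the null group as TSP1-1 where the source names say TSP1 null, and compared with limma 3.58.1 in R 4.3.3 (lmFit and eBayes, two-sided, no covariates) with Benjamini-Hochberg adjustment over 22180 genes and a threshold of 0.05. Intervals are 95% and unadjusted. The fit was tested on simulated data. Promoter windows come from RefSeq tables.

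Members and lists were chosen with earlier results of these data known. The text names the members, Thbs1, markers of the labelled cells, the 3 genes of smallest p per pathway list and the nearest profiles. Cd68, Tyrobp, Adam10, Adam17, Grb2, Itga6, Epcam and the other keratin, claudin, collagen and fibroblast genes were added after their values were seen. Alternatives were a repeated quantile normalization, median centring, leaving out dim genes, averaging probe sets, testing every probe set, a trended robust prior, an ordinary linear model, array weights, a replicate block, a macrophage covariate and leaving out each array. Batches were not given in the sources used here.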

Additional observations from a re-analysis of the deposited data

How the results depend on the processing

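Over the 16 alternatives 0 members passed the threshold, and 0 genes of the 5 pathway lists did. The differences of Egfr (0.63 to 1.07), Erbb2 (0.37 to 0.51) and Tgfa (-0.47 to -0.20) kept their direction wherever they could be computed; Tgfa, Erbb3 and Btc gave no value when dim genes were left out. Of all tested genes 0 passed, with 2341 at an unadjusted p below 0.05, and an ordinary linear model also gave 0, with 1904. When every deposited probe set was tested 2 passed, and leaving out 1 array gave 0 to 34, the 34 without the second null array and 1 gene, Fabp7, without the first wild-type array. At an unadjusted p below 0.05 there were 1310 genes, and 1 member (Erbb2), with the macrophage covariate, 3766 probe sets when every one was tested, and 1497 and 1487 genes without the first and the third null array.

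The other 5 members changed sign in places, and the cause was not tested. With array weights Erbb3 was at -0.014, and with the macrophage covariate Hbegf was at 0.41 and Nrg1 at 0.31. Leaving out 1 array gave -0.080 to 0.10 for Erbb3, -0.30 to 0.56 for Ereg, -0.90 to 0.33 for Hbegf, -0.16 to 0.084 for Btc and -0.32 to 0.16 for Nrg1. The main fit did not take the replicate numbers as pairs. Deviations of same-numbered arrays from their group means correlated at -0.14, 0.18 and -0.16 for numbers 1, 2 and 3. Those of unlike-numbered arrays ran from -0.18 to 0.26. With only 3 arrays behind each group mean, such values cannot exclude pairing. With the replicate block 0 genes passed and 2215 had an unadjusted p below 0.05, and the limma adjusted p of Egfr, Erbb2 and Tgfa were 0.368, 0.406 and 0.449. Signals near the array medians limit what Erbb3, Btc and Tgfa can show.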
